A study of Mus musculus with 40 samples.

Results

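ETn (early transposon) and MusD elements are a group of mouse endogenous retroviruses, remnants of retroviral insertions that are carried in the genome and can be copied through RNA. They were taken here as every annotated copy of a transposable element (TE) whose family name begins with MMETn, ETnERV or RLTRETN, which gave 5 families and 5898 copies of 3799629 annotated TE copies. The families were MMETn-int with 960 copies, ETnERV-int with 905, ETnERV2-int with 2090, ETnERV3-int with 615 and RLTRETN_Mm with 1328. The name ending -int marks an internal part, and RLTRETN_Mm is a long terminal repeat (LTR), the end sequence that carries the promoter of such an element. RNA of these families was measured in 2 ways, as family totals that include reads matching several places, and as reads of single copies that align at 1 place.

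The 40 RNA-seq libraries came from XY mouse embryonic stem cells (mES cells), held naive by 2 kinase inhibitors (2i) plus LIF, and from epiblast-like cells (EpiLCs) made from them in medium to which 20 ng/mL FGF was added along with Activin A at 12 ng/mL. All cultures were harvested after 48 h. At each stage 8 libraries were wild type (WT), 4 lacked the lamin B receptor LBR (LBRKO), 4 were lamin triple knockouts of Lmna, Lmnb1 and Lmnb2 (TKO) and 4 carried disrupted Lbr on top of the TKO deletions (QKO). The question was whether the nuclear lamina, the protein layer under the inner nuclear membrane to which lamins and LBR belong, bears on the RNA of these elements at either stage. Each library was a single culture well, so p-values measure the spread between wells, which may be technical. WT and TKO cells were lines of littermate origin, TKO cells carried a trisomy of chromosome 8 and had partly lost the Y chromosome, and some WT cells also had karyotype changes. QKO cells were 1 clone derived from TKO cells, with a frameshift on one Lbr allele and an in-frame deletion on the other. Several LBRKO clones were made, and the labels do not say which of them gave a library.

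ETn elements have lost the open reading frames of a retrovirus and depend for their movement on proteins from MusD elements, which still encode them and which the annotation lists as ETnERV-int. Both belong to the ERVK class and are transcribed in the early mouse embryo and in embryonic stem and carcinoma cells, where new ETn and MusD insertions are a known source of mouse mutations. Their repression is known to involve histone H3 lysine 9 trimethylation through TRIM28 and SETDB1 and DNA methylation.

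The LTR sequences below are shown because they carry the promoters of the copies on which the results turn, 2 from highly expressed MMETn-int copies, 1 from the highest ETnERV-int copy and 1 from an ETnERV2-int copy that was higher in lamin-deficient mES cells. Each is the last 300 bases of the LTR upstream of the internal part, read 5′ to 3′ along the element on GRCm39. Capitals mark the letters AATAAA (a polyadenylation signal), CACGTG (an E-box), TATAAA (the TATA box) or GGGCGG (a GC box), searched on both strands.
MMETn-int_dup109 (RLTRETN_Mm LTR, chr3:53025999-53026298, minus strand): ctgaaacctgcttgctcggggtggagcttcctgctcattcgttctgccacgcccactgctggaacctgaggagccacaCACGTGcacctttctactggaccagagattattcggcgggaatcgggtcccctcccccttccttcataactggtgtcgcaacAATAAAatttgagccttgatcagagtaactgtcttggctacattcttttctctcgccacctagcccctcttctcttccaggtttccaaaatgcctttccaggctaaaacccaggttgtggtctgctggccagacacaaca
MMETn-int_dup388 (RLTRETN_Mm LTR, chr8:41019760-41020059, plus strand): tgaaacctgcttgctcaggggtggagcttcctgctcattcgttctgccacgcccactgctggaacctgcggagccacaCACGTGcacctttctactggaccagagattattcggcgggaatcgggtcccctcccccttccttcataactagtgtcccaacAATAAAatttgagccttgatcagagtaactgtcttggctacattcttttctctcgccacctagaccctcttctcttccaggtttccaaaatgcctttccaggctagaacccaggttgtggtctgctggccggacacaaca
ETnERV-int_dup833 (ERVB7_1-LTR_MM LTR, chr17:32588413-32588712, plus strand): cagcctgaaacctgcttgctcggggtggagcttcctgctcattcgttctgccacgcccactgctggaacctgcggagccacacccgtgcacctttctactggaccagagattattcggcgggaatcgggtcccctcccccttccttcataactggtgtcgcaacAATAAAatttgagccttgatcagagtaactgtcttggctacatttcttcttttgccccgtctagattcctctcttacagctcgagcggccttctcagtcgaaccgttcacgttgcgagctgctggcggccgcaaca
ETnERV2-int_dup1587 (RLTR9D LTR, chr11:5649853-5650152, minus strand): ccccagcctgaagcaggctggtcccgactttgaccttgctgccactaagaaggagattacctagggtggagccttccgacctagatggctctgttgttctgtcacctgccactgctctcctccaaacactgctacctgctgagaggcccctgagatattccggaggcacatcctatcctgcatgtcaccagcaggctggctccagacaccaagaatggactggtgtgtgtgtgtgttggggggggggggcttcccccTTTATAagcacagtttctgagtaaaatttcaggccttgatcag

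AATAAA lay 134 bases before the LTR end in both MMETn-int copies and 130 bases before it in ETnERV-int_dup833, and CACGTG lay 216 bases before the end in both MMETn-int copies. The ETnERV2-int LTR held TATAAA on the opposite strand, printed as TTTATA, 37 bases before its end. Among 182 windows of RLTRETN_Mm LTRs that begin a locus with an LTR of the same family at both ends, 121 (66.5%) held AATAAA and 141 (77.5%) held CACGTG. Among 161 windows of ERVB7_1-LTR_MM, the LTR kind that flanks most complete ETnERV-int loci, 140 (87.0%) held AATAAA and 118 (73.3%) held CACGTG. Among 32851 RefSeq promoters of 300 bases (GRCm38.p6), the shares were 19.6% and 7.15%. TATAAA was found in 15.4% of RLTRETN_Mm, 27.3% of ERVB7_1-LTR_MM and 13.6% of promoter windows, and GGGCGG in 0, 37 (23.0%) and 11714 (35.7%) of them. No window of the RLTR13 kinds that flank ETnERV3-int held CACGTG. The whole LTRs of MMETn-int_dup109 and ETnERV-int_dup833 were 99.1% identical over the first 225 bases, which end in a run of bases shared by both downstream of AATAAA, and 63.1% identical beyond it, where both MMETn-int LTRs were 96.9% identical to each other.

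The copies differed in completeness. Of all 5898, 3095 had at least 1 uniquely aligned read and 463 (7.85%) passed the filter on low counts, against 3.35% of all TE copies. The median length was 337 bp over all members and 2535 bp over the tested ones, so tested copies are not a sample of all members. Tested copies numbered 218 of MMETn-int, 99 of ETnERV-int, 85 of ETnERV2-int, 39 of RLTRETN_Mm and 22 of ETnERV3-int. Genes held 19.8% of all members and 162 of the 463 tested ones, of which 116 ran antisense to the gene and 46 along it. Whether counting used strand was not given, so reads of a copy inside a gene cannot be told apart from reads of that gene. Internal parts joined into 2387 loci. An LTR of the same family stood at both ends of 235 MMETn-int loci (median 4856 bp), 154 ETnERV-int loci (6723.5 bp), 65 ETnERV3-int loci (5932 bp) and 21 ETnERV2-int loci (4490 bp), while 737 ETnERV2-int loci had no LTR beside them. Both LTRs of an element are identical when it inserts and drift apart later. Where both were of like length, their median identity was 98.4% in 206 MMETn-int loci, 98.1% in 142 ETnERV-int loci, 98.3% in 55 ETnERV3-int loci and 89.0% in 7 ETnERV2-int loci. It was higher in loci with a tested copy, at 99.1% against 94.4% for MMETn-int and 99.4% against 97.2% for ETnERV-int, a description without a test.

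Between 22.6 and 48.9 M counts fell on genes in a library, and 25197 to 109511 uniquely aligned reads fell on the members. The targeted genes went with the labels, less clearly in EpiLCs for Lbr and Lmna. Levels are in CPM, counts scaled to the library size after TMM adjustment. Lmnb1 was at 526 in WT and 8.36 in TKO mES cells, and Lbr was at 380 in WT and 212 ± 66.3 (SD, n = 4) in LBRKO mES cells. In EpiLCs Lmnb1 was at 507 in WT and 0.848 in TKO, and Lmna at 11.1 and 7.80. Lbr was at 367 to 493 in WT EpiLCs and 197 to 407 in LBRKO EpiLCs, with overlap. Summed naive markers were 3846 to 4697 CPM in WT mES cells and 100 to 174 in WT EpiLCs, and summed primed markers 130 to 216 and 3138 to 3676. In EpiLCs naive markers were above WT in LBRKO, at 191 to 295 CPM, and within the WT range in TKO and QKO. Primed markers were below WT in LBRKO (2477 to 2863) and QKO (2230 to 2360) and overlapped WT in TKO. All mutants stood apart from WT in 2-cell-like genes (5 of 6 found), at 6.94 to 10.5 in WT against 0.332 to 2.33 over the mutants. Summed markers of fibroblasts, primitive endoderm and trophectoderm did not exceed 24.1 CPM in any library. Trophectoderm markers were 21.6 to 24.1 CPM in QKO against 7.42 to 9.39 in WT EpiLCs and 14.7 to 17.0 in LBRKO against 6.81 to 11.1 in WT mES cells. Primitive endoderm markers were 13.9 to 15.5 CPM in LBRKO against 6.84 to 8.95 in WT mES cells, and fibroblast markers 9.98 to 10.3 in QKO and 11.2 to 14.5 in LBRKO against 18.4 to 23.6 in WT EpiLCs. The part of all these markers in the values below was not tested. Sequencing depth of WT replicates 1 to 4 was like that of TKO and QKO and depth of WT replicates 5 to 8 like that of LBRKO, and the labels name no batch. In bulk RNA, fewer cells that express an element cannot be told apart from less RNA per cell.

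In WT cells the MMETn-int and ETnERV-int families were abundant and were higher in EpiLCs. MMETn-int totals in WT mES cells were 2229 CPM at the lowest, 2735 at the median and 2905 at the highest, and in WT EpiLCs 5248, 5727 and 5974. Every EpiLC library was above every mES library. The rise was 1.08 ± 0.05 on the log2 scale (SE, edgeR quasi-likelihood test, Benjamini-Hochberg adjusted p = 3.34e-21). ETnERV-int, the MusD internal part, was at 1991 ± 118 CPM (SD, n = 8) in mES cells and 3862 ± 164 in EpiLCs, again without overlap, and its log2 difference of 0.96 ± 0.04 (adjusted p = 1.06e-22) stayed under the 2-fold threshold. RLTRETN_Mm, the ETn LTR, was at 80.9 ± 15.7 CPM and 162 ± 25.6 CPM. WT replicates 1 to 4 and 5 to 8 did not overlap for this family. They were at 60.4 to 69.7 and 91.8 to 99.7 CPM in mES cells, and at 128 to 173 and 176 to 186 CPM in EpiLCs. MMETn-int was split in this way in mES cells alone, at 2229 to 2710 and 2760 to 2905 CPM. For all 5 families mutants were compared with all WT libraries pooled. The RLTRETN_Mm difference between stages of 1.00 ± 0.13 (adjusted p = 8.69e-09) stood at the threshold and passed it only just, and it missed it when any of 9 WT libraries was left out. ETnERV2-int was at 29.6 ± 8.84 and 33.8 ± 4.13 CPM (0.19 ± 0.12, adjusted p = 0.151), and ETnERV3-int at 12.5 ± 2.86 and 8.92 ± 1.12 CPM (-0.49 ± 0.13, adjusted p = 0.000951, under 2-fold). Thus 2 of 5 families rose and 0 fell, against 2.36% and 2.19% of the 1142 TE families tested. At an unadjusted p under 0.05, 3 were higher and 1 lower, and DESeq2 called 1 and 0. MMETn-int also came to lie under 2-fold with WT replicates 5 to 8 alone (0.98) or with sums of unique reads (0.96).

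**Figure D1:**
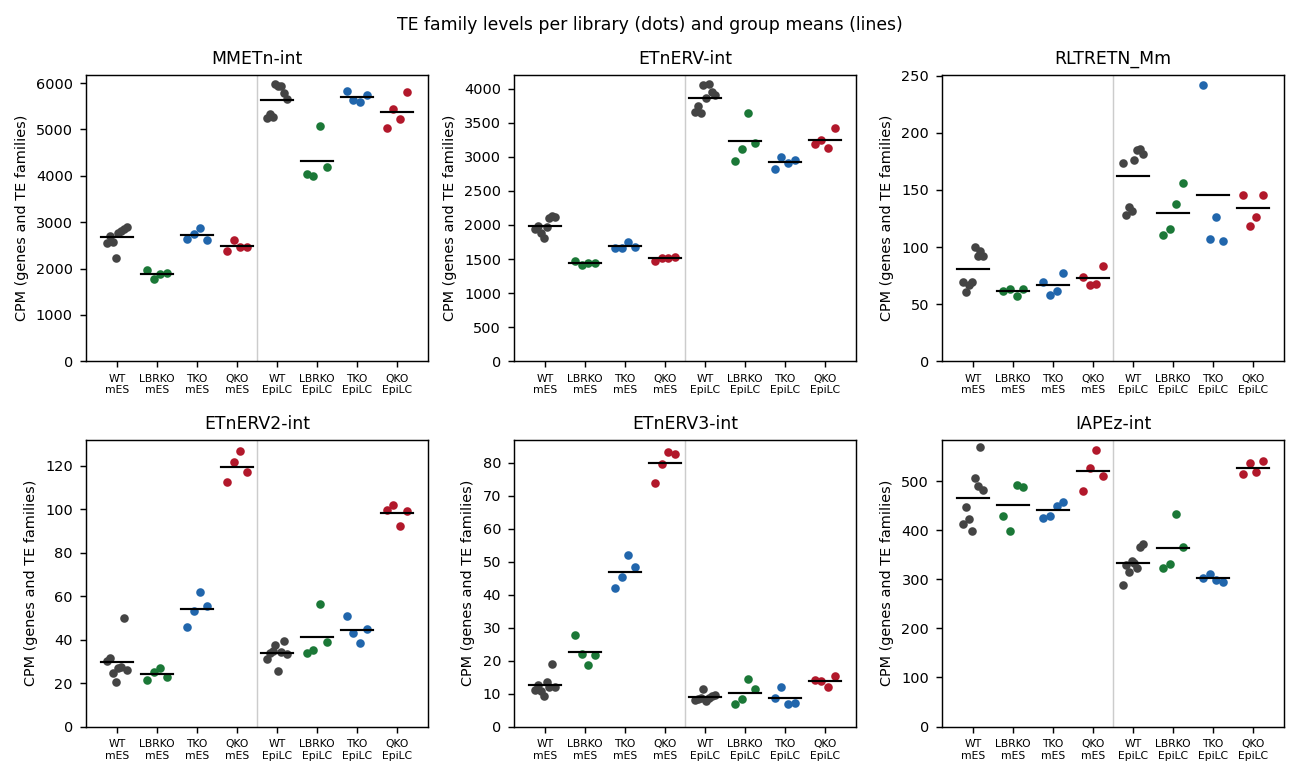
Family totals in CPM on linear axes from 0, 1 panel for each of the 5 families and for the related IAPEz-int, with dots for libraries and lines for group means of the 8 groups. MMETn-int and ETnERV-int are higher in all EpiLC groups, and ETnERV2-int and ETnERV3-int stand highest in QKO mES cells at 119 and 79.8 CPM.

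Per annotated kb, the scale on which families can be compared, levels in WT mES cells were 1.90 CPM for MMETn-int, 1.62 for ETnERV-int, 0.196 for RLTRETN_Mm, 0.0183 for ETnERV2-int and 0.0151 for ETnERV3-int. In WT EpiLCs they were 4.02, 3.14, 0.393, 0.0209 and 0.0108. MMETn-int and ETnERV-int thus stood highest at both stages. Together the members made up 6.35 ± 0.535% of all family counts in WT mES cells and 11.3 ± 1.37% in WT EpiLCs. Uniquely aligned reads amounted to 12.4 to 24.1% of the family total in MMETn-int and 10.2 to 20.6% in ETnERV-int, but to 68.2 to 104% in ETnERV2-int (the share can pass 100% because the tables were counted differently). Values of single MMETn-int and ETnERV-int copies therefore rest on a minority of their reads.

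IAPEz-int, the internal part of the intracisternal A particle and the most like abundant family, was at 467 ± 57.3 CPM in WT mES cells and 333 ± 27.0 CPM in WT EpiLCs, a difference under 2-fold. Its WT mES replicates 1 to 4 (398 to 449 CPM) lay below replicates 5 to 8 (483 to 570 CPM). The ratio of MMETn-int to IAPEz-int was 5.75 ± 0.395 in WT mES cells and 17.0 ± 1.18 in WT EpiLCs, a log2 difference of 1.56 (two-sided exact permutation test, n = 8 and 8, p = 0.000155, the smallest these numbers allow, adjusted p = 0.00218 over 14 tests). The ratio was lower than in WT in LBRKO mES cells (4.19, log2 difference -0.46), QKO mES cells (4.78, -0.27), LBRKO EpiLCs (11.9, -0.51) and QKO EpiLCs (10.2, -0.74), each with the smallest exact permutation p of 0.00202 for 4 against 8 and an adjusted p of 0.00566. In these 4 comparisons every mutant library was below every WT library. In QKO EpiLCs MMETn-int differed from WT by -0.07 (adjusted p = 0.359) and IAPEz-int by 0.66 ± 0.08 (adjusted p = 1.53e-09), at 528 against 333 CPM. In TKO the differences were 0.10 in mES cells (exact permutation test, adjusted p = 0.184) and 0.15 in EpiLCs (adjusted p = 0.0519). With summed unique reads in place of family totals, both TKO differences became negative, at -0.25 and -0.33. The ratio of RLTRETN_Mm to MMETn-int, LTR to internal part, was 0.0246 to 0.0325 in the 8 group means, and none of 7 comparisons passed (adjusted p from 0.137 to 0.784).

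In LBRKO cells the abundant families were lower by less than 2-fold. MMETn-int was at 1970, 1777, 1886 and 1902 CPM in the 4 LBRKO mES libraries, all below the lowest WT library (2229). Its log2 difference from WT was -0.50 ± 0.06 (adjusted p = 7.54e-08), and that of ETnERV-int was -0.46 ± 0.05 (adjusted p = 3.60e-09). RLTRETN_Mm differed by -0.40 (adjusted p = 0.0599) and ETnERV2-int by -0.30 (adjusted p = 0.122). ETnERV3-int was higher, at 27.8, 22.0, 18.6 and 21.6 CPM against 9.30 to 18.8 in WT, with a log2 difference of 0.85 ± 0.15 (adjusted p = 2.19e-05), and the highest WT library stood above the lowest LBRKO library. No family passed both thresholds, where 0.525% of all families rose and 0.0876% fell. The unadjusted p was under 0.05 for 1 family higher and 4 lower, and DESeq2 also called 0. In LBRKO EpiLCs MMETn-int was at 4035, 4004, 5072 and 4184 CPM, below the lowest WT library (5248), with a log2 difference of -0.38 ± 0.06 (adjusted p = 9.66e-06), and ETnERV-int differed by -0.26 ± 0.05 (adjusted p = 0.000118). Again 0 families passed (background 0.876% higher and 0.263% lower, unadjusted p under 0.05 for 1 higher and 2 lower, 0 by DESeq2).

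In TKO mES cells ETnERV3-int rose. Its totals were 42.0, 45.2, 52.0 and 48.3 CPM against a WT range of 9.30 to 18.8 with a median of 12.0. No library of the groups overlapped. The rise was 1.91 ± 0.14 on the log2 scale (adjusted p = 1.69e-13). ETnERV2-int stood at 45.8, 53.4, 61.7 and 55.3 CPM against 20.6 to 49.9 in WT, a log2 difference of 0.87 ± 0.14 (adjusted p = 4.93e-06) under the 2-fold threshold, with 1 WT library (replicate 7) above the lowest TKO library. ETnERV-int was lower by -0.24 ± 0.05 (adjusted p = 0.000441), and MMETn-int did not pass at 2720 ± 122 CPM against 2671 ± 220 (0.03, adjusted p = 0.819). The count was 1 of 5 higher and 0 lower, against 2.10% and 0.0876% of all families (unadjusted p under 0.05 for 2 higher and 1 lower, DESeq2 1 and 0). In TKO EpiLCs none of the 5 passed (background 0.701% higher and 0.263% lower, unadjusted p under 0.05 for 1 higher and 1 lower, 0 by DESeq2). ETnERV-int was lower there by -0.40 ± 0.05 (adjusted p = 1.58e-07), at 2919 ± 73.7 CPM against 3862 ± 164, and ETnERV3-int was at 8.65 ± 2.39 CPM against 8.92 ± 1.12.

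In QKO mES cells the less abundant internal families ETnERV2-int and ETnERV3-int rose. ETnERV2-int was at 113, 121, 127 and 117 CPM against at most 49.9 in WT, and its log2 rise was 2.01 ± 0.13 (adjusted p = 1.13e-15). ETnERV3-int was at 73.9, 79.6, 83.1 and 82.5 CPM against at most 18.8, and its rise was 2.67 ± 0.14 (adjusted p = 1.48e-18). For both families all QKO libraries stood above all WT and all TKO libraries. ETnERV-int was lower by -0.40 ± 0.05 (adjusted p = 2.39e-08), under 2-fold, and MMETn-int and RLTRETN_Mm did not pass (-0.10, adjusted p = 0.169, and -0.16, adjusted p = 0.441). So 2 of 5 rose, where 25.1% of all 1142 families rose and 0 fell, and where the median family was higher by 0.82. Against TKO, ETnERV2-int was higher by 1.14 ± 0.16 (adjusted p = 1.03e-06) and was the 1 family of 5 that rose (background 4.47%), and ETnERV3-int was higher by 0.77 ± 0.17 (adjusted p = 0.000821), under 2-fold. The median family was higher by 0.57 over TKO.

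In QKO EpiLCs ETnERV2-int rose and ETnERV3-int did not reach 2-fold. ETnERV2-int was at 99.7, 102, 92.3 and 99.2 CPM against 25.7 to 39.4 in WT, a rise of 1.54 ± 0.13 (adjusted p = 1.70e-12), and against TKO it rose by 1.15 ± 0.16 (adjusted p = 2.90e-07). The groups did not overlap in either comparison. ETnERV3-int was at 13.9 ± 1.31 CPM, higher by 0.63 ± 0.15 (adjusted p = 0.000514). ETnERV-int was lower than in WT by -0.25 ± 0.05 (adjusted p = 5.83e-05) and MMETn-int did not pass (-0.07, adjusted p = 0.359). The 1 of 5 that rose stood against 26.0% of all families in QKO over WT and 21.8% in QKO over TKO. The median family was higher by 0.85 over WT and by 0.84 over TKO. The ETnERV3-int difference of 0.63 from WT was thus under the median.

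Interaction terms asked whether these effects differed from each other. In mES cells ETnERV2-int in QKO was 1.44 ± 0.22 higher on the log2 scale than the sum of its LBRKO and TKO effects (adjusted p = 2.75e-06), 1 of 5 families against 2.63% of all, whereas ETnERV3-int differed from the sum by -0.08 (adjusted p = 0.876). In EpiLCs the ETnERV2-int term was 0.87 ± 0.21 (adjusted p = 0.00217), under 2-fold (0 of 5 called, background 4.38% higher and 0.175% lower, 3 higher at an unadjusted p under 0.05, 0 by DESeq2), and passed 2-fold (1.06) without replicate 3 of LBRKO EpiLCs. The change of ETnERV3-int from mES cells to EpiLCs was more negative than in WT by -1.95 ± 0.22 in TKO (adjusted p = 2.40e-08) and by -2.04 ± 0.22 in QKO (adjusted p = 7.50e-10), 1 of 5 families lower in each against 1.23% and 1.49% of all. ETnERV3-int was thus above WT in TKO and QKO mES cells by more than in QKO EpiLCs. In TKO EpiLCs it was not higher, at 8.65 CPM against 8.92 in WT. For LBRKO the terms were -0.65 for ETnERV3-int (adjusted p = 0.0346) and 0.58 for ETnERV2-int (adjusted p = 0.0419), neither past 2-fold (0 of 5 called in edgeR, background 0.438% higher and 0.263% lower, unadjusted p under 0.05 for 2 higher and 1 lower).

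Related ERVK families are given for scale. RLTR45-int was at 51.4, 32.7, 158 and 1093 CPM in WT, LBRKO, TKO and QKO mES cells, and ERVB4_2-I_MM at 11.6, 6.62, 29.0 and 176 CPM, so both stood highest in QKO mES cells, as did ETnERV2-int at 29.6, 24.1, 54.1 and 119 CPM. In EpiLCs RLTR45-int stood at 16.4, 19.7, 20.2 and 39.2 CPM, and IAPEz-int at 333, 363, 302 and 528 CPM.

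Uniquely aligned reads of the members came from few copies. From which copies the reads that match several places came is not known. The 10 copies with the highest mean over the 8 groups held 51.0 ± 1.47% of uniquely aligned member reads in WT mES cells (SD, n = 8), 49.0% in LBRKO, 42.5% in TKO and 34.4 ± 0.861% in QKO, and in EpiLCs 53.4, 49.9, 45.4 and 39.5%. In WT mES cells 9 copies made up the upper 50% of uniquely aligned member reads and in QKO mES cells 18 did. The first copy was ETnERV-int_dup833 in WT and LBRKO and MMETn-int_dup109 in TKO and QKO, at both stages.

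The 463 tested copies were compared 1 by 1. From WT mES cells to WT EpiLCs 133 rose (28.7%) and 43 fell (9.29%), against 12792 (10%) and 13706 (10.8%) of all 127346 TE copies tested, with a median log2 difference of 0.75 over members and 0.12 over all copies. Of MMETn-int copies 73 rose and 6 fell, of ETnERV-int copies 24 and 3, of ETnERV2-int 26 and 17, of RLTRETN_Mm 7 and 7, and of ETnERV3-int 3 and 10. These 176 calls included 15 copies that overlap an exon. Of the risen copies inside tested genes, the gene passed both thresholds in the same direction for 15, in the opposite direction for 2 and neither way for 19. Of the fallen ones, it passed in the same direction for 13 and neither way for 1. Counts of this kind are given for members only, here and below, without the same counts over all TE copies.

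In LBRKO mES cells 3 copies rose and 44 fell (0.648% and 9.50%), against 0.413% and 0.475% of all copies, and the medians were -0.47 over members and 0.26 over all. The copies that fell were 27 of MMETn-int, 7 of ETnERV-int, 6 of ETnERV2-int and 4 of RLTRETN_Mm. The 3 that rose were ETnERV3-int pieces of 1 locus. The calls numbered 28 without replicate 3 of LBRKO mES cells, 31 without replicate 4 and 77 (3 higher, 74 lower) with scaling by the copies, under which 0.238% and 1.03% of all copies were called. In LBRKO EpiLCs 10 rose and 15 fell (2.16% and 3.24%), against 1.35% and 0.281% of all, and 11 of the 15 were MMETn-int. The lists of fallen copies at the 2 stages shared 10, which were 22.7% of the mES list and 66.7% of the EpiLC list, and the rising lists shared 0. Without the shares over all TE copies, such overlaps cannot be read as particular to the members.

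In TKO 50 copies rose and 45 fell in mES cells (10.8% and 9.72%, background 3.14% and 0.758%), and 24 rose and 45 fell in EpiLCs (5.18% and 9.72%, background 2.25% and 0.542%). Falling MMETn-int copies numbered 25 and 22 and falling ETnERV-int copies 11 and 14. The 5 ETnERV3-int copies that rose in mES cells lay in 2 loci. Of the fallen copies 36 were shared between stages, 80.0% of either list, and of the risen ones 16, which were 32.0% and 66.7%. The same shares over all TE copies are again not given. Among risen copies in tested genes, the gene passed in the same direction for 6 in mES cells and 1 in EpiLCs. It passed neither way for 6 and 5. Among fallen copies, it passed in the same direction for 9 and 6 and neither way for 9 and 9.

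In QKO mES cells 125 copies rose and 53 fell (27.0% and 11.4%, background 20.1% and 1.57%), and in QKO EpiLCs 154 rose and 38 fell (33.3% and 8.21%, background 31.8% and 1.34%). The share that rose in EpiLCs was near that of all copies. Among risen copies in tested genes, the gene passed in the same direction for 16 in mES cells and 21 in EpiLCs. It passed in the opposite direction for 4 in EpiLCs and neither way for 29 and 36. Among fallen copies, it passed in the same direction for 10 and 8 and neither way for 10 and 7. By family, ETnERV2-int rose in 51 of 85 copies and fell in 1 in mES cells, and rose in 53 (62.4%) and fell in 1 in EpiLCs, with medians of 1.61 and 1.62 against 0.67 and 0.85 over all copies. ETnERV3-int rose in 11 of 22 and 8 of 22, MMETn-int in 43 and 58 of 218, ETnERV-int in 11 and 16 of 99, and RLTRETN_Mm in 9 and 19 of 39. Falls numbered 1 and 3 in ETnERV3-int, 26 and 18 in MMETn-int, 15 and 10 in ETnERV-int, and 10 and 6 in RLTRETN_Mm. The share that rose in MMETn-int was near that of all copies in mES cells (19.7%) and below it in EpiLCs (26.6%). The shares in ETnERV-int (11.1% and 16.2%) were below those of all copies. The ETnERV2-int copies that rose in mES cells lay in 39 loci. These splits rest on scaling by genes. With TMM factors taken from the copies themselves, which shifted the median member by -0.62 in QKO mES cells and -0.78 in QKO EpiLCs, 68 rose and 99 fell of 473 tested members (background 5.85% and 5.50% of all copies under this scaling), and 75 rose and 85 fell (background 7.63% and 6.52%). Under this scaling ETnERV2-int still rose more often than it fell (30 and 6 of 81 copies in mES cells, 27 and 2 in EpiLCs), while MMETn-int fell more often (19 higher and 52 lower of 225, and 27 and 40). Against TKO, 30 copies rose and 2 fell in QKO mES cells (background 1.07% and 0.132%, and 21 calls in all without replicate 1 of TKO mES cells), and 107 rose and 2 fell in QKO EpiLCs (23.1% and 0.432%, background 13.2% and 0.569%), of which 40 that rose were ETnERV2-int and 39 MMETn-int. With scaling by the copies these were 15 and 8 (background 0.416% and 0.642%), and 49 and 14 (background 3.19% and 2.96%).

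**Figure D2:**
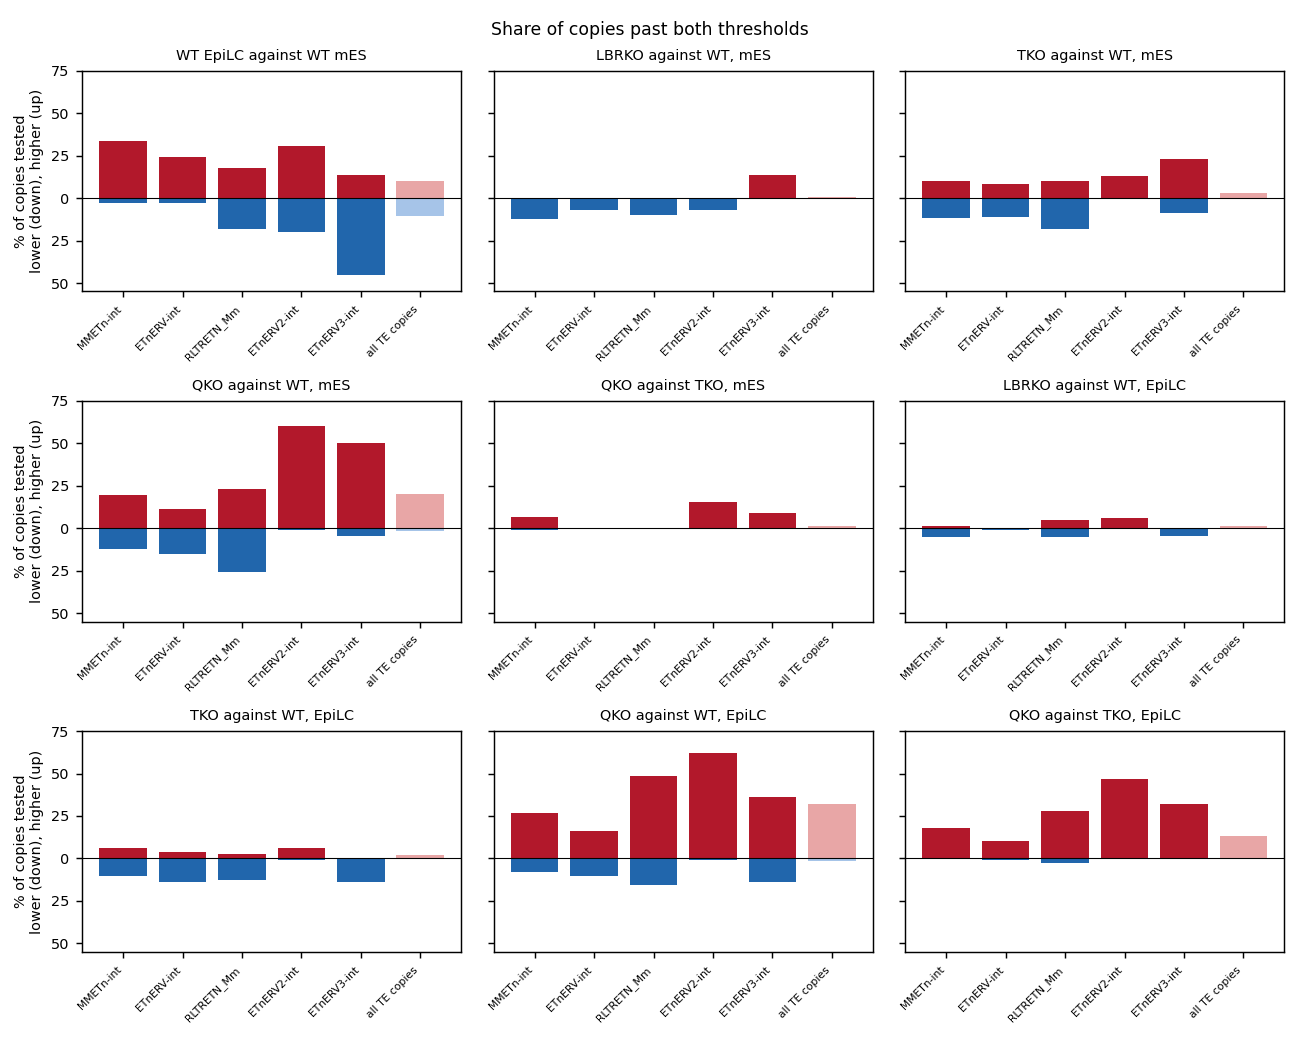
Share of tested copies called higher (bars up from 0) or lower (bars down), in percent, for each of the 5 families and all TE copies in the 9 comparisons. In QKO mES cells 51 of 85 ETnERV2-int copies rose against 20.1% of all TE copies, and in LBRKO mES cells 27 of 218 MMETn-int copies fell against 0.475% of all.

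The highest copy of all, ETnERV-int_dup833, lies on chr17:32588713-32594712, plus strand, in an intron of Wiz and antisense to it, between ERVB7_1-LTR_MM LTRs that were 100% identical. Its uniquely aligned reads were 115 CPM at the lowest, 154 at the median and 181 at the highest in WT mES cells, and 131, 108, 122 and 115 CPM in LBRKO. They were 8.75, 9.66, 9.84 and 7.22 CPM in TKO and 8.09, 7.67, 9.80 and 7.41 CPM in QKO mES cells. WT and LBRKO overlapped, and every TKO and QKO library lay far under both. The fall was -4.09 ± 0.12 in TKO and -4.20 in QKO. In EpiLCs WT stood at 289 ± 26.9 CPM, LBRKO at 217 ± 31.8, TKO at 14.7 ± 1.15 and QKO at 16.2 ± 1.30. The host gene Wiz, which encodes a zinc finger partner of the histone methyltransferases G9a and GLP, was at 127 ± 8.71 CPM in WT, 124 in LBRKO, 70.1 ± 3.04 in TKO and 66.5 ± 2.44 in QKO mES cells, a log2 difference of -0.81 ± 0.07 in TKO (adjusted p = 8.14e-12) that was under 2-fold.

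MMETn-int_dup388 lies on chr8:41020060-41024440, plus strand, in an intron of Mtmr7 and antisense to it, with RLTRETN_Mm LTRs that were 99.4% identical. It was at 72.7, 92.1 and 112 CPM (lowest, median and highest) in WT mES cells and at 0.356, 0.425, 0.295 and 0.572 CPM in TKO and 0.382, 0.185, 0.592 and 0.199 CPM in QKO. The fall was -7.81 ± 0.23 on the log2 scale in TKO (adjusted p = 2.36e-45) and -8.07 ± 0.23 in QKO. In LBRKO mES cells the 4 libraries were at 48.1, 42.2, 83.3 and 79.5 CPM and in LBRKO EpiLCs at 107, 117, 235 and 222 CPM. Replicates 1 and 2 were thus low and 3 and 4 within or near the WT range at both stages, and clones are not named in the labels. In WT EpiLCs the copy was at 235 ± 11.7 CPM, in TKO at 0.796 ± 0.105 and in QKO at 0.734 ± 0.146. Mtmr7 itself was at 69.3 CPM in WT, 68.8 in TKO and 73.1 in QKO mES cells.

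MMETn-int_dup664, intergenic on chr12:27469237-27473593, was at 56.4 ± 15.9 CPM in WT mES cells, 36.7 in LBRKO, 0.617 in TKO and 0.624 in QKO, and at 99.5 ± 25.3, 70.1, 1.34 and 1.13 CPM in EpiLCs. Its falls in TKO were -6.49 in mES cells and -6.24 in EpiLCs. A short piece of the same locus, MMETn-int_dup663, had 305 reads over the WT mES libraries and 0 in TKO and QKO, so it was at least 42.2-fold lower in TKO and at least 40.2-fold lower in QKO mES cells (floor of 3 counts over the group).

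After these values were seen, copies were listed that had at least 1 CPM in WT at both stages and under 0.1 of the WT mean in TKO and in QKO at both stages. Of 94 member copies at that WT level 10 met this, against 30 of 6804 TE copies (0.441%). In LBRKO 0 of either set fell that low at both stages. They were 5 of 53 MMETn-int, 4 of 33 ETnERV-int and 1 of 8 other copies, in 6 loci with the same LTR family at both ends. Besides the 3 loci above, ETnERV-int_dup188 (chr5:60107058-60113433, in an exon of Gm43041) was at 30.1 CPM in WT, 30.9 in LBRKO, 0.762 in TKO and 0.731 in QKO mES cells. ETnERV-int_dup654 (chr12:76269437-76275419, antisense in Tex21) was at 34.2, 23.5, 0.732 and 0.816 CPM. MMETn-int_dup667 (chr12:51022329-51025620, intergenic) was at 26.1, 28.8, 0.327 and 0.279 CPM. In EpiLCs the same 3 were at 73.8, 77.5 and 34.4 CPM in WT, 1.88, 1.46 and 0.550 CPM in TKO and 2.03, 1.88 and 0.719 CPM in QKO. The comparisons of TKO and QKO share their WT libraries, and QKO cells were derived from TKO cells. Whether the genomes of the lines hold the same insertions was not tested.

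Together the low copies summed to 396 ± 57.6 CPM in WT mES cells, 309 in LBRKO, 11.8 ± 1.61 in TKO and 11.2 in QKO, and to 821 ± 71.0, 638, 21.0 ± 0.890 and 22.9 CPM in EpiLCs. The other member copies summed to 788 ± 156 CPM in WT mES cells, 619 in LBRKO, 909 in TKO and 1035 in QKO, and to 1349, 1156, 1388 and 1826 CPM in EpiLCs. The low sums follow from how the low copies were chosen, and the sum of the other copies in TKO EpiLCs lay within the WT range.

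**Figure D3:**
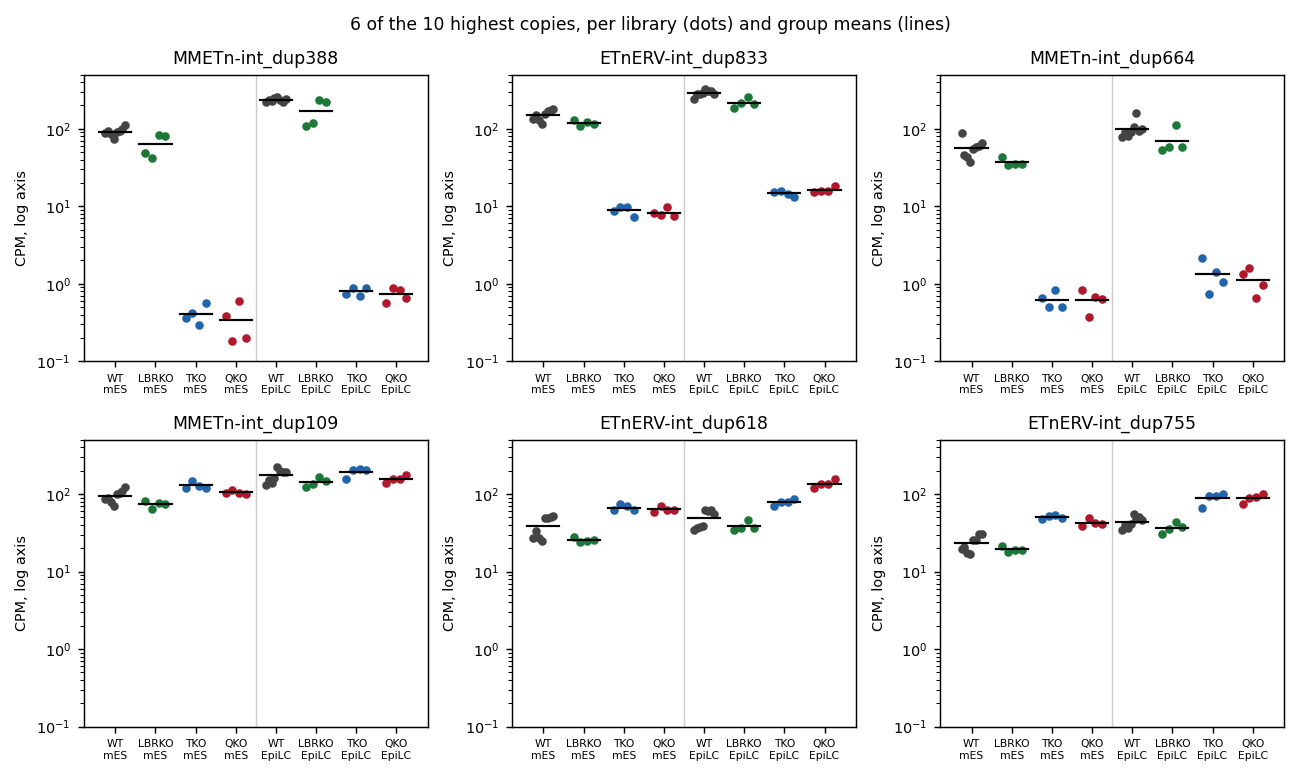
Uniquely aligned reads of 6 of the 10 highest copies in CPM on a log axis, with a dot for each library and lines for group means. The 3 upper copies stand at 18.1 CPM or less in every TKO and QKO library and at 37.2 CPM or more in every WT library, and the 3 lower copies do not.

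Other leading copies were not low in lamin-deficient cells. MMETn-int_dup109 (chr3:53021618-53025998, minus strand, antisense in an intron of Lhfpl6, LTRs 100% identical) was at 95.5 ± 17.9 CPM in WT, 74.4 in LBRKO, 129 ± 13.4 in TKO and 105 in QKO mES cells, and at 174 ± 32.5 CPM in WT EpiLCs. ETnERV-int_dup618 (chr11:19359453-19365432, plus strand, intergenic) was at 25.0, 40.9 and 51.6 CPM (lowest, median, highest) in WT mES cells and at 62.0, 73.2, 70.5 and 61.7 CPM in TKO, without overlap. In EpiLCs ETnERV-int_dup618 was at 34.8 to 61.9 CPM in WT and at 118, 134, 134 and 156 CPM in QKO, and it rose by 1.48 ± 0.13. ETnERV-int_dup755 (chr14:112604334-112605484, minus strand, intergenic) was at 23.3 ± 5.53 CPM in WT and 50.6 ± 2.75 in TKO mES cells and rose by 1.12 ± 0.12, and by 1.02 in TKO EpiLCs and 1.03 in QKO EpiLCs.

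MMETn-int_dup48 (chr1:152954461-152958803, minus strand) runs antisense in an intron of Nmnat2, which encodes an NAD-synthesising enzyme of neurons. It was at 22.0 to 54.9 CPM in WT mES cells and at 24.6, 19.6, 15.1 and 16.3 CPM in LBRKO, a fall of -1.01 ± 0.16. In EpiLCs it was at 15.6 to 29.3 CPM in WT and at 75.8, 87.4, 89.7 and 91.1 CPM in QKO, a rise of 1.94 ± 0.15, and it rose by 1.18 against TKO. QKO EpiLC libraries stood above all others. Nmnat2 stood at 73.0 CPM in WT mES cells and at 8.08 in WT EpiLCs (-3.13), and MMETn-int_dup48 was also lower in WT EpiLCs (-0.76, under 2-fold). Against WT, Nmnat2 fell in QKO mES cells (-1.33, 27.4 CPM) and rose in QKO EpiLCs (1.07 ± 0.12, 17.3 CPM). MMETn-int_dup415 (chr9:7800760-7804868), intergenic and nearest to Tmem123, was at 40.3, 40.4, 30.5 and 32.0 CPM in the mES groups and at 117, 106, 103 and 122 CPM in the EpiLC groups, and rose by 1.54 ± 0.12 from WT mES cells to WT EpiLCs. MMETn-int_dup836 (chr16:25337126-25340087, plus strand, intergenic) was at 49.6 CPM in WT mES cells.

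The called copies with the highest fitted rises in TKO and QKO mES cells were pieces of 1 ETnERV2-int locus. ETnERV2-int_dup1589 (chr11:5646903-5648981, minus strand, in a locus with ETnERV2-int_dup1587 and ETnERV2-int_dup1590 near Mrps24) had no read in any of the 16 WT and 8 LBRKO libraries. In TKO mES cells it was at 1.07, 1.63, 0.913 and 1.22 CPM, and in QKO mES cells at 2.77, 3.33, 2.52 and 3.35 CPM. These were 144 and 346 reads over 4 libraries each, at least 115-fold and at least 286-fold higher than WT. In EpiLCs TKO was at 0.540 ± 0.200 CPM and QKO at 2.19 ± 0.262 CPM, at least 54.4-fold and at least 220-fold higher. All QKO libraries stood above all TKO libraries at both stages. ETnERV2-int_dup1587 was at least 103-fold and 146-fold higher in TKO and QKO mES cells, and ETnERV2-int_dup1590 at least 56.5-fold and 97.9-fold.

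Other risen copies included ETnERV2-int_dup1618 (chr11:31930496-31931254, near 4930524B15Rik), at 0.0874, 0.0620, 0.348 and 3.11 ± 0.454 CPM in WT, LBRKO, TKO and QKO mES cells, with a rise of 3.13 ± 0.43 in QKO over TKO (adjusted p = 4.29e-07). MMETn-int_dup807 (chr15:9355489-9357032, minus strand, antisense in an intron of Ugt3a1 and overlapping an exon of Gm56738) was at 0.187 to 0.702 CPM in WT EpiLCs, at 1.77, 1.96, 1.64 and 2.46 CPM in TKO and at 8.87, 10.5, 11.5 and 12.6 CPM in QKO. The 3 groups did not overlap, and the rise in TKO was 2.59 ± 0.24 (adjusted p = 9.81e-15). MMETn-int_dup642 (chr11:83125176-83128144, antisense in Gm11427) was at 0.143 CPM in WT EpiLCs, 0.684 in LBRKO, 0.0747 in TKO and 1.22 in QKO, with rises of 2.24 ± 0.36 in LBRKO over WT and 4.14 ± 0.53 in QKO over TKO (adjusted p = 9.17e-09). Its host Gm11427 rose in the same comparisons by 1.07 ± 0.27 and 5.13 ± 0.24, to 0.277 CPM in LBRKO and 8.81 CPM in QKO EpiLCs. MMETn-int_dup745, in an exon of Zfp738 and on its strand, reached 1.67 CPM in TKO and 4.34 CPM in QKO EpiLCs, where Zfp738 stood at 31.5 and 51.5 CPM against 18.0 in WT.

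**Figure D4:**
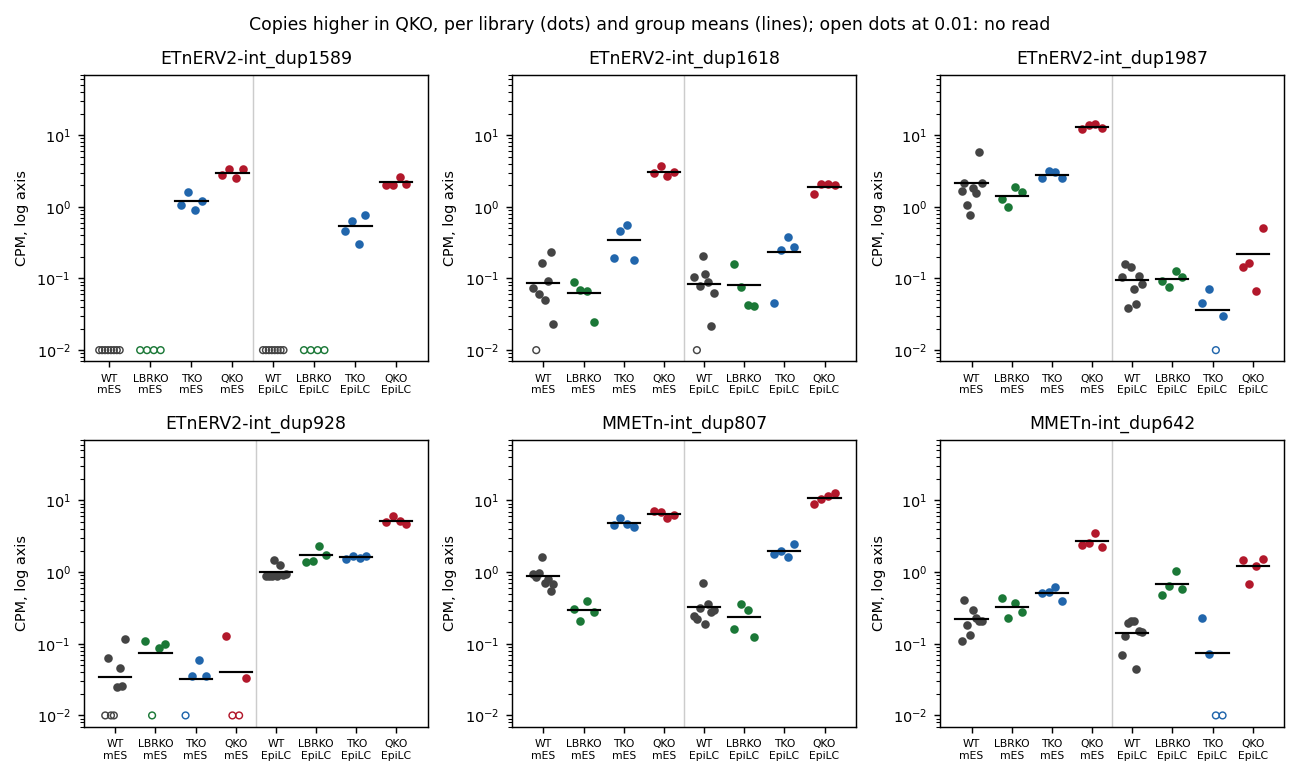
Uniquely aligned reads of 6 copies that were higher in QKO cells at a stage, in CPM on a log axis, with a dot for each library, lines for group means and open dots at 0.01 for libraries with no read. ETnERV2-int_dup1589 has reads in TKO and QKO libraries alone, and ETnERV2-int_dup928 reaches a mean of 5.23 CPM in QKO EpiLCs.

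Between stages in WT, the largest single-copy changes were in ETnERV2-int. ETnERV2-int_dup845 (chr9:15343982-15345349) went from 0.0185 to 0.760 CPM (4.98 ± 0.43) and ETnERV2-int_dup928 (chrX:13165490-13167423, near Gm5380) from 0.0347 to 1.02 CPM (4.62 ± 0.36). ETnERV2-int_dup1884 (chr16:18858250-18859783) went from 0.915 to 0.00561 CPM (-6.51 ± 0.50). Both risen copies were higher still in QKO EpiLCs, where ETnERV2-int_dup928 was at 5.23 CPM and ETnERV2-int_dup845 at 2.11 CPM.

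In LBRKO most of the lowest called copies were MMETn-int. MMETn-int_dup297 (chr7:17016928-17021325) fell by 3.27 ± 0.59 and MMETn-int_dup583 (chr10:54568883-54572692) fell by 2.53 ± 0.30 in mES cells, and RLTRETN_Mm_dup170 (chr2:179060923-179061258) fell by 2.87 ± 0.43. MMETn-int_dup866 (chr17:14314977-14319349) was at 40.1 to 76.6 CPM in WT EpiLCs and at 13.9, 14.6, 15.1 and 13.5 CPM in LBRKO, a fall of -2.04 ± 0.17, while QKO EpiLC libraries of this copy (40.6 to 52.3 CPM) lay within the WT range. In mES cells MMETn-int_dup866 was at 32.2 ± 10.9 CPM in WT and 5.84 ± 0.406, 9.99 and 8.45 CPM in LBRKO, TKO and QKO. RLTRETN_Mm_dup845, in an exon of ENSMUSG00000112819, was at 4.06 CPM in LBRKO EpiLCs against 0.779 in WT (2.35 ± 0.20), and that gene was at 9.46 CPM against 1.57. In QKO over TKO, ETnERV-int_dup402 (chr9:84766361-84772132) was 1 of the 2 copies that fell in EpiLCs, by 1.19 ± 0.29 (adjusted p = 0.00277), at 4.38 CPM against 9.99.

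Of 22 genes that take part in silencing endogenous retroviruses, all were tested. From WT mES cells to WT EpiLCs 4 rose, the de novo DNA methyltransferases Dnmt3a (4.04 ± 0.07) and Dnmt3b (4.32 ± 0.10), their cofactor Dnmt3l (2.65 ± 0.09) and the H3K9 methyltransferase Suv39h1 (1.38 ± 0.06), and 0 fell (5 lower at an unadjusted p under 0.05), where 18.2% of all genes rose and 12.9% fell. In the comparisons of mutants with WT or TKO, Dnmt3l was the gene of the list that passed. It was at 23.7 ± 5.12, 174, 57.2 and 109 CPM in WT, LBRKO, TKO and QKO mES cells and at 143, 633, 257 and 619 CPM in EpiLCs. Dnmt3l rose by 2.88 ± 0.10 in LBRKO, 1.32 in TKO and 2.28 in QKO mES cells (background 3.06%, 2.68% and 10.6%), and by 2.12 in LBRKO and 2.07 in QKO EpiLCs (3.04% and 13.0%), and by 1.26 in QKO over TKO EpiLCs (9.97%). In TKO against WT EpiLCs and in QKO against TKO mES cells 0 of the list passed in edgeR (background 1.44% and 4.09% higher), with an unadjusted p under 0.05 for 3 higher and 2 lower and for 6 higher and 5 lower. Trim28 and Setdb1, which act on these elements through H3K9 trimethylation, did not pass both thresholds in any of the 9 comparisons. Under 2-fold, Setdb1 still differed from WT by 0.72 ± 0.06 in QKO and 0.43 ± 0.06 in TKO mES cells. In EpiLCs it differed by -0.33 ± 0.06 in LBRKO and -0.32 ± 0.06 in QKO, and Dnmt3b by -0.84 ± 0.11 in QKO. In the interaction terms Setdb1 passed once, its change from mES cells to EpiLCs being more negative in QKO than in WT by -1.05 ± 0.08 (adjusted p = 8.04e-14), and Dnmt3l passed once, at -1.92 ± 0.15 from the sum of its LBRKO and TKO effects in QKO mES cells.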

How the data were processed

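Total RNA was sequenced as stranded paired-end libraries after depletion of ribosomal RNA. Per the labels and the methods, the authors trimmed reads with cutadapt 2.5, aligned them with STAR 2.7.10a against GRCm39 (genes of GENCODE M30) and indexed alignments with SAMtools 1.10. Deposited raw counts cover genes and single TE copies and were taken by the authors with featureCounts 1.6.4 from reads with a single alignment, so repeated sequence loses reads. The deposited family table holds estimated counts from TEcount, written as whole numbers, in which a read that matches several copies is shared out. The strand setting of the counting is not given in the sources used here.

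Genes and families were tested together with edgeR 4.0.16 (quasi-likelihood test, TMM, filterByExpr, all 40 libraries, 1 mean per group) in R 4.3.3 with 1142 families among the features, and single copies over 127346 copies with the library sizes and TMM factors of the gene table. A call needed a Benjamini-Hochberg adjusted p under 0.05 and over 2-fold. CPM errors are SD and log2 errors SE, the latter taken as the log2 difference over the square root of the F value of its test. Family ratios were compared by two-sided exact permutation tests, adjusted over 14. Internal parts on 1 strand within 500 bp were joined to a locus, with LTRs within 100 bp. LTRs were aligned with edlib 1.3.9.post1, and positions set against GENCODE M39 with GenomicRanges 1.54.1. DESeq2 1.42.0 was an alternative.

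Named items were all 5 families, the 10 copies with the highest mean, up to 3 called copies per direction and comparison without overlap and with 0.5 CPM, their host genes, the targeted genes and a list of 22 silencing genes. Members and lists were chosen with earlier results of these data known. The fits were tested on simulated data with known folds. The fit of single copies recovered 0 of 50 changes of 2-fold, 12 of 50 of 3-fold, 21 of 50 of 4-fold and 38 of 50 of 8-fold. The fit of families and genes recovered 23 of 50 at 2-fold and 47 of 50 at 3-fold. A copy that was not called may therefore still have changed, and counts of called or shared copies are limited by this. One ETnERV3-int locus is counted in the family values and copy counts and is not otherwise reported here.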

Additional observations from a re-analysis of the deposited data

Results flagged for a closer look

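Among 120 groups of 4 or 8 libraries examined for families and leading copies, 15 held a library whose gap to the others was a larger part of the range than Dixon's 95% value allows, where chance gives about 1 in 20 groups. Replicate 1 of TKO EpiLCs accounted for 6 of them. It was high for RLTRETN_Mm (242 CPM, others 105 to 127) and low for MMETn-int_dup109 (155 CPM, others 202 to 210), MMETn-int_dup415 (67.4, others 112 to 118), MMETn-int_dup414 (44.3, others 68.1 to 69.6), MMETn-int_dup836 (44.1, others 68.7 to 70.3) and ETnERV-int_dup755 (66.3, others 93.6 to 98.8). Replicate 3 of LBRKO EpiLCs was high for MMETn-int (5072 CPM, others 4004 to 4184), ETnERV-int_dup618 (46.7, others 34.8 to 36.6) and MMETn-int_dup664 (113, others 52.5 to 57.6).

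Replicate 7 of WT mES cells was high for ETnERV2-int (49.9 CPM, others 20.6 to 31.7) and ETnERV3-int (18.8, others 9.30 to 13.4). Single libraries also stood apart for ETnERV-int in TKO mES replicate 3 (1757 CPM, others 1666 to 1670), MMETn-int_dup48 in QKO mES replicate 2 (55.1, others 48.4 to 48.5), MMETn-int_dup664 in LBRKO mES replicate 1 (42.5, others 34.2 to 35.5) and MMETn-int_dup664 in WT EpiLC replicate 6 (158, others 78.9 to 106). The causes were not tested.

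Effects differed between groups by the tested interaction terms for ETnERV2-int, whose QKO effect in mES cells exceeded the sum of the LBRKO and TKO effects by 1.44 on the log2 scale, and for ETnERV3-int, whose change from mES cells to EpiLCs differed from that in WT by -1.95 in TKO and -2.04 in QKO.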

How the results depend on the processing

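Depth limits the single copies, since 50% of uniquely aligned member reads lay in at most 18 copies. Leaving out all copies in genes lowered the calls by its own construction, to 116 from WT mES cells to EpiLCs, 56 in TKO, 98 in QKO and 17 in QKO against TKO mES cells, and 44, 105 and 62 in EpiLCs. With TMM factors of the copies the calls were 77 (3 higher, 74 lower) in LBRKO mES cells and 63 (49 higher, 14 lower) in QKO against TKO EpiLCs. Family calls from WT mES cells to EpiLCs were 1 with DESeq2, median-ratio factors or no filter, and 0 with WT replicates 5 to 8 alone or with sums of unique reads. They were 1 in LBRKO mES cells with WT replicates 1 to 4 or with unique sums, 2 in TKO mES cells with WT replicates 1 to 4, and 2 in QKO against TKO EpiLCs with unique sums.

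With WT replicates 1 to 4 or 5 to 8 alone, the log2 differences in MMETn-int to IAPEz-int were 1.53 and 1.6 between stages, -0.51 and -0.40 in LBRKO and -0.32 and -0.21 in QKO mES cells, and -0.53 and -0.49 and then -0.75 and -0.72 in EpiLCs, where 4 against 4 libraries are too few to pass after adjustment. With unique sums this ratio reversed in TKO, to -0.25 in mES cells and -0.33 in EpiLCs. The ratio of RLTRETN_Mm to MMETn-int then became -0.80 between stages, 0.64 and 0.46 in LBRKO, and reversed to 0.44 and 0.27 in TKO and 0.69 and 0.73 in QKO mES cells and EpiLCs. The cause was not tested.

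Leaving out 1 library at a time gave 28 to 54 copy calls in LBRKO mES cells (47 with all, 28 without LBRKO replicate 3 and 31 without replicate 4) and 21 to 29 in QKO against TKO mES cells (32 with all, 21 without TKO replicate 1). Family calls ranged from 1 to 2 in TKO mES cells (2 without WT replicate 7, where ETnERV2-int reached 1.02) and from 1 to 2 between stages, where RLTRETN_Mm fell under 2-fold (0.94 to 0.99) without any 1 of WT EpiLC replicates 1, 5, 6, 7 or 8 or WT mES replicates 1 to 4. The QKO interaction in EpiLCs ranged from 0 to 1 calls (1 without LBRKO replicate 3). The ratio MMETn-int to IAPEz-int in TKO EpiLCs ranged from 0.13 to 0.17 (exact permutation, adjusted p = 0.0354 without WT replicate 1 or 6). RLTRETN_Mm to MMETn-int ranged from -0.51 to -0.12 in TKO EpiLCs (-0.51, adjusted p = 0.0283 by exact permutation, without TKO replicate 1) and from -0.39 to -0.23 in TKO mES cells (-0.36, adjusted p = 0.0444, without WT replicate 2). The call of MMETn-int_dup856 in QKO against TKO mES cells (-1.38, adjusted p = 0.0352) was lost without any 1 of the 8 libraries.

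Replicate numbers were not taken to pair the samples, since in 0 of 9 comparisons all 4 pairs deviated together (r from -0.38 to 0.47). With the replicate block the copy calls were 182 between stages, 67, 89, 185 and 39 in LBRKO, TKO, QKO and QKO against TKO mES cells, and 34, 67, 198 and 115 in EpiLCs, none over 1.5 times from the reported counts, and the family calls were the same in number.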
